A study of Scyliorhinus canicula with 3 samples.

Results

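Notch signalling, the basic helix-loop-helix (bHLH) factors and the Sox factors were followed across the cell classes of the juvenile catshark retina. Features were taken as members when their symbol named a Notch receptor, a Delta or Jagged ligand, or a Hes, Hey, Her, proneural bHLH, Olig, Bhlhe, Id or numbered Sox gene and when they had at least 10 unique molecular identifiers (UMIs) in the nuclei within the limits of the Methods. Of 29017 features, 35 matched by symbol and 32 were members, out of 22117 features with at least 10 UMIs. The other 3 symbols were sox17, with 2 UMIs, and atoh1a and olig3, both with 0. The pattern also took in dlc1, which is not a Notch ligand but encodes a GTPase-activating protein. It is 1 of the 32 members and enters the counts of members below, and its values are given apart.

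The data came from 3 single-nucleus RNA libraries of Scyliorhinus canicula, each made from frozen retina of a different female juvenile, 11.0, 10.5 and 11.1 cm long. All 3 animals form the group juvenile retina, with no treatment, no altered allele and no second condition, so the libraries were replicates (n = 3) and classes of nuclei were compared within them. The libraries held 73310348, 50691314 and 71366924 UMIs, and 6053, 4426 and 10154 nuclei lay within the limits, with a median of 3400, 2193.5 and 2032 UMIs. Pairs of libraries shared 1 to 16 barcodes. After removal of 728 called doublets and of 3 clusters (2404 nuclei) that came mostly from 1 library, 17501 nuclei were clustered.

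Notch is a receptor that is cleaved when a Delta or Jagged ligand on a neighbouring cell binds it, and its freed intracellular part turns on genes of the Hes, Her and Hey families. These repressors hold back proneural bHLH factors such as Neurog1, so that a cell with active Notch tends to stay a progenitor or to become glia. In vertebrate retinas, Müller glia (MG) and retinal progenitor cells (RPCs) share Sox2 and Notch targets, and Sox9, Sox8 and Sox10 belong to the SoxE group, which is known for its part in glia. Id proteins lack the DNA-binding basic region and tie up bHLH partners.

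Classes were rebuilt from marker genes, none of which was a member, and the members were also kept out of the features used for clustering. RPC-like nuclei numbered 375 (135, 53 and 187 in libraries 1, 2 and 3), MG-like nuclei 859 (117, 298 and 444), and nuclei like oligodendrocytes (OL-like) 35 (5, 13 and 17). These 1269 progenitor and glial nuclei were set against 15775 neurons, which were rod-like, horizontal (HC-like), bipolar (BC-like), amacrine (AC-like) and ganglion (RGC-like) nuclei and 4400 nuclei rich in nr2e3. These 4400 had too few markers for the name of photoreceptor precursors and are called nr2e3-rich nuclei, with foxo1a among their leading genes. Of the marker lists, 21 of 22 RPC genes were raised in RPC-like nuclei, 4 of 6 MG genes in MG-like nuclei and 5 of 5 OL genes in OL-like nuclei. The same lists gave the clusters their names, so these counts describe the naming and are no separate support for it. A raised prss56 was also required for the RPC-like name. This protease gene had 225, 900 and 374 CPM in RPC-like nuclei, against 1.29, 5.26 and 4.99 CPM in neurons. In OL-like nuclei mbp, the myelin basic protein gene, was at 0, 138 and 2519 CPM, so that the OL label had no mbp behind it in the 5 nuclei of library 1. A further 354 nuclei with many RPC genes but less prss56 stayed without a name by a limit set after the data were seen, and they were 1.38%, 2.14% and 2.34% of the nuclei kept in libraries 1, 2 and 3.

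To give levels, the nuclei of each class were summed within each library, and a gene's UMIs were scaled to 1000000 UMIs of that sum (CPM). Means carry the SD over the 3 libraries. Differences were tested with edgeR's quasi-likelihood test on the sums with the library as a block, and a gene was called when its Benjamini-Hochberg adjusted p over all genes tested was below 0.05 and its fold change was at least 2. Classes come from the same nuclei as the sums, so adjusted p-values are too small by an unknown amount. Near-empty droplets, with a median of 305 to 481 UMIs, served as a reading of free RNA, and their levels stand beside the results. In those droplets id1 had 61.8, 146 and 20.3 CPM and bhlhe40 162, 324 and 92.8 CPM, against 7.54, 24.5 and 4.68 CPM for id1 and 80.5, 185 and 81.3 CPM for bhlhe40 in neurons.

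Most members had their highest level outside the neurons. Leaving out OL-like nuclei for their small number, 20 of the 32 members were highest in RPC-like or MG-like nuclei (9 and 11 members), and 12 in a neuron class. The class was the same in all 3 libraries for 15 members, while the highest and the next class did not overlap for 9 members. The 15 include sox21b, which had 0 UMIs in library 1, so that its classes tied there. Some leads were small, as for bhlhe40, with 155 CPM in MG-like and 145 CPM in rod-like nuclei. The share of all features highest in these classes was not computed, so the counts describe the members only. In the map of levels the Notch receptor, the Hes, Her and Hey repressors and the SoxE genes stand out on the left, and sox5, sox6, bhlhe40 and id4 are seen in neuron classes as well. For sox14, sox18 and sox21b, every class had a mean below 1 CPM.

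**Figure D1:**
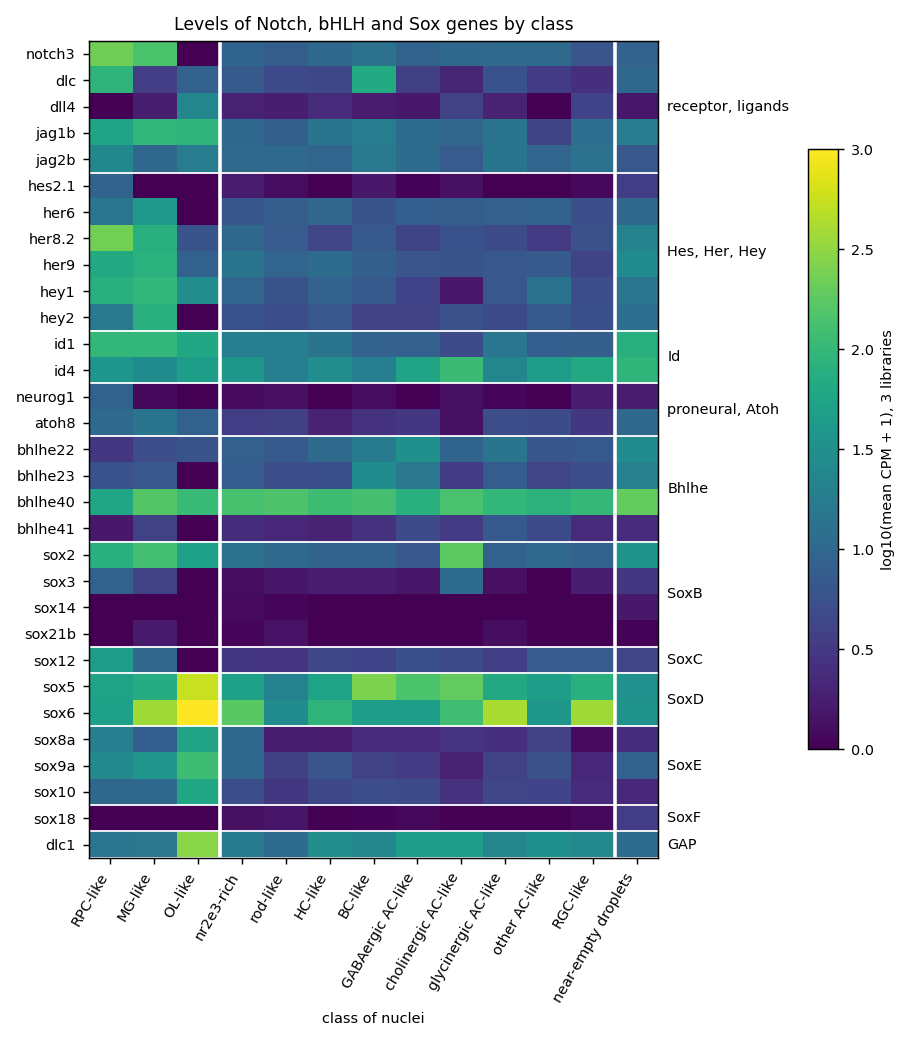
Mean level of the members (rows, ordered by family) in 12 classes of nuclei and in near-empty droplets (columns), coloured by log10 of the mean CPM of 3 libraries plus 1. Progenitor and glial classes are the first 3 columns, and notch3 is seen at 221 CPM in RPC-like and 140 CPM in MG-like nuclei but at 5.16 to 12.7 CPM in the neuron classes.

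In progenitor and glial nuclei together, 15 members were higher than in neurons and 2 were lower. The 15 included the receptor notch3, the ligand jag1b, the repressors her6, her8.2, her9, hey1 and hey2, the inhibitor id1, the bHLH factor atoh8, and sox2, sox8a, sox9a, sox10 and sox12. The 2 lower ones, bhlhe22 and bhlhe23, encode bHLH repressors known from subsets of amacrine and bipolar cells in mouse. Low counts left 27 of the 32 members in this test. Over those 27 the median log2 fold change was 2.11, against 0.00347 over all 17620 genes tested, of which 7.36% were called higher and 5.49% lower. Members with few UMIs could enter only through the group where they were high, so these counts describe the members tested.

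Set apart, RPC-like nuclei had 13 members higher than neurons and 4 lower, and MG-like nuclei 13 higher and 2 lower, of 22 members tested in each. Among all 11214 genes tested, 9.19% were higher and 12.7% lower in RPC-like nuclei, and 9.15% were higher and 7.83% lower in MG-like nuclei. The median log2 fold change of the members was 2.24 in RPC-like and 1.49 in MG-like nuclei, against 0.00827 and -0.0672 over all genes. Both comparisons share the neurons. The test between RPC-like and MG-like nuclei called 5 members higher in RPC-like nuclei and 3 lower, beside 3.95% and 6.06% of all genes.

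The receptor notch3 (chromosome 25, 7895147 to 8083408, sScyCan1.1 build) was the only Notch receptor among the members. Members were found by symbol, and genes annotated only with a LOC number could not be searched by product name. Whether other Notch receptors are among those genes was not examined. It had 276, 188 and 198 CPM in RPC-like nuclei and 190, 140 and 89.1 CPM in MG-like nuclei, against 4.66, 11.5 and 9.15 CPM in neurons. Every RPC-like and MG-like library lay above every neuron library, by a log2 fold change of 4.61 ± 0.37 (SE, adjusted p = 6.51e-08) in RPC-like and 3.98 ± 0.35 (adjusted p = 8.57e-08) in MG-like nuclei. RPC-like and MG-like nuclei did not pass the test of their difference for notch3, 0.63 ± 0.33 on the log2 scale, but it was called at a clustering resolution of 0.3 in place of 0.5 (1.07). OL-like nuclei held 0 notch3 UMIs of 121473 in all, and near-empty droplets had 7.21 to 8.59 CPM.

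Delta and Jagged ligands differed in the classes that held them. The Delta gene dlc (chromosome 27, 4077148 to 4117046) had 95.8, 94.0 and 72.6 CPM in RPC-like nuclei, against 1.64, 3.95 and 1.81 CPM in MG-like nuclei and 11.1, 15.2 and 9.63 CPM in neurons. It was higher in RPC-like than in MG-like nuclei by a log2 fold change of 5.00 ± 0.41 (adjusted p = 3.61e-07) and than in neurons by 2.79 ± 0.27 (adjusted p = 2.76e-07), and it was lower in MG-like nuclei than in neurons by a log2 fold change of -2.21 ± 0.42 (adjusted p = 0.000474). With each neuron class at equal weight, the MG-like value was -0.76 and was not called. In progenitor and glial nuclei summed together, dlc did not pass the test (log2 fold change 1.03). It passed without library 2 (1.56) and with neuron classes at equal weight (2.44). In that sum MG-like nuclei were the most numerous in libraries 2 and 3, and RPC-like nuclei in library 1. RPC-like nuclei gave it 814592, 127723 and 550807 UMIs in libraries 1, 2 and 3, and MG-like nuclei 610758, 1518328 and 1660461.

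The Jagged gene jag1b (chromosome 1, 207714467 to 207765327) was found in both classes. It had 90.8, 31.3 and 45.4 CPM in RPC-like nuclei and 146, 87.6 and 55.4 CPM in MG-like nuclei, against 10.1, 13.4 and 8.72 CPM in neurons, and neither class overlapped the neurons. The log2 fold changes were 2.37 ± 0.36 (adjusted p = 4.07e-05) in RPC-like and 3.05 ± 0.30 (adjusted p = 1.73e-07) in MG-like nuclei. Near-empty droplets had 26.0, 16.8 and 8.95 CPM of jag1b.

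The other Jagged gene, jag2b (chromosome 2, 5252310 to 5464331), rested on few UMIs. It had 30.7, 0 and 41.8 CPM in RPC-like nuclei (25, 0 and 23 UMIs), against 6.55, 11.2 and 9.64 CPM in MG-like nuclei and 10.2, 11.9 and 11.4 CPM in neurons. In library 2, jag2b was not detected in RPC-like nuclei, where 3 UMIs are 23.5 CPM, so no direction can be read there. It was called higher in RPC-like nuclei than in neurons (2.51-fold, adjusted p = 0.0138) and than in MG-like nuclei (3.02-fold, adjusted p = 0.0307), but both calls were lost without library 1 (log2 fold changes of 1.30 and 1.45) and without library 3 (1.04 and 1.17), and both were lost without library as a block in the fit (1.25 and 1.51). The call against MG-like nuclei was also lost at resolution 0.3 (1.35) and with nuclei without a name added to RPC-like sums (1.23), an alternative chosen after the data were seen. Of dll4, a Delta gene known from blood vessels, 0 UMIs were found in RPC-like nuclei and 4 in MG-like nuclei, against 64 in neurons (1.12 ± 0.671 CPM), and it was not called.

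Of the repressors tested in RPC-like nuclei against neurons, her8.2, a gene of the Hes/Her family named after zebrafish, had the largest fold change. It had 93.3, 282 and 303 CPM in RPC-like nuclei and 72.0, 72.4 and 84.9 CPM in MG-like nuclei, against 2.33, 6.77 and 6.81 CPM in neurons and 9.53, 30.8 and 22.9 CPM in near-empty droplets. RPC-like nuclei were 37.2-fold (adjusted p = 3.85e-09) and MG-like nuclei 15.1-fold (adjusted p = 8.93e-09) above neurons. RPC-like nuclei were also called higher than MG-like nuclei, by a log2 fold change of 1.31 ± 0.30 (adjusted p = 0.00588), although library 1 differed little. The call was lost without library 2 (1.03), without library 3 (1.00) and without library as a block in the fit (1.40). With the nuclei that had no name added to the RPC-like sums, an alternative chosen after the data were seen, this log2 fold change was 0.97.

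A more even pattern was found for her9, whose zebrafish counterpart is a Hes-type repressor of neurogenesis. It had 78.6, 31.3 and 85.3 CPM in RPC-like nuclei and 81.9, 82.3 and 78.9 CPM in MG-like nuclei, against 6.2, 8.21 and 7.81 CPM in neurons. It was 9.01-fold higher in RPC-like nuclei (adjusted p = 1.63e-07) and 10.8-fold higher in MG-like nuclei (adjusted p = 5.81e-09), and did not pass the test between them, at -0.26 ± 0.29 on the log2 scale.

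The Hey genes encode relatives of the Hes repressors, and hey2 but not hey1 passed the test between RPC-like and MG-like nuclei. For hey1, RPC-like nuclei had 113, 47.0 and 69.0 CPM and MG-like nuclei 182, 71.8 and 32.5 CPM, against 8.53, 4.46 and 3.17 CPM in neurons, with 13.9-fold (adjusted p = 9.61e-08) and 15.6-fold (adjusted p = 5.23e-09) higher levels. For hey2, MG-like nuclei had 133, 63.9 and 28.9 CPM, against 4.56, 4.22 and 3.13 CPM in neurons (16.1-fold, adjusted p = 1.25e-07), while RPC-like nuclei had 4.91, 31.3 and 9.08 CPM, from 4, 4 and 5 UMIs. In RPC-like nuclei hey2 was 8.14-fold lower than in MG-like nuclei (adjusted p = 0.00108), a call that was lost without library 1 (log2 fold change of -1.62 in place of -3.03). Without library 1, hey2 was also called higher in RPC-like nuclei than in neurons (1.94 in place of 0.99), as it was with the nuclei without a name added (1.73). Near-empty droplets had 8.04 to 15.7 CPM of hey2, and the RPC-like levels of libraries 1 and 3 lay below or within that range.

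A like leaning to glia was seen for her6, the zebrafish relative of Hes1. It was called higher in MG-like nuclei, with 39.9 ± 23.2 CPM, against 6.11 ± 2.12 CPM in neurons (5.86-fold, adjusted p = 6.51e-05), and not in RPC-like nuclei, with 14.2 ± 1.72 CPM. The difference of her6 between RPC-like and MG-like nuclei did not pass the test (adjusted p = 0.0817). The her6 call was not followed through the alternatives. The remaining Hes gene, hes2.1, had 13 UMIs in RPC-like nuclei and 7.91 ± 4.32 CPM there, 0 in MG-like nuclei, and too few counts for the test.

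**Figure D2:**
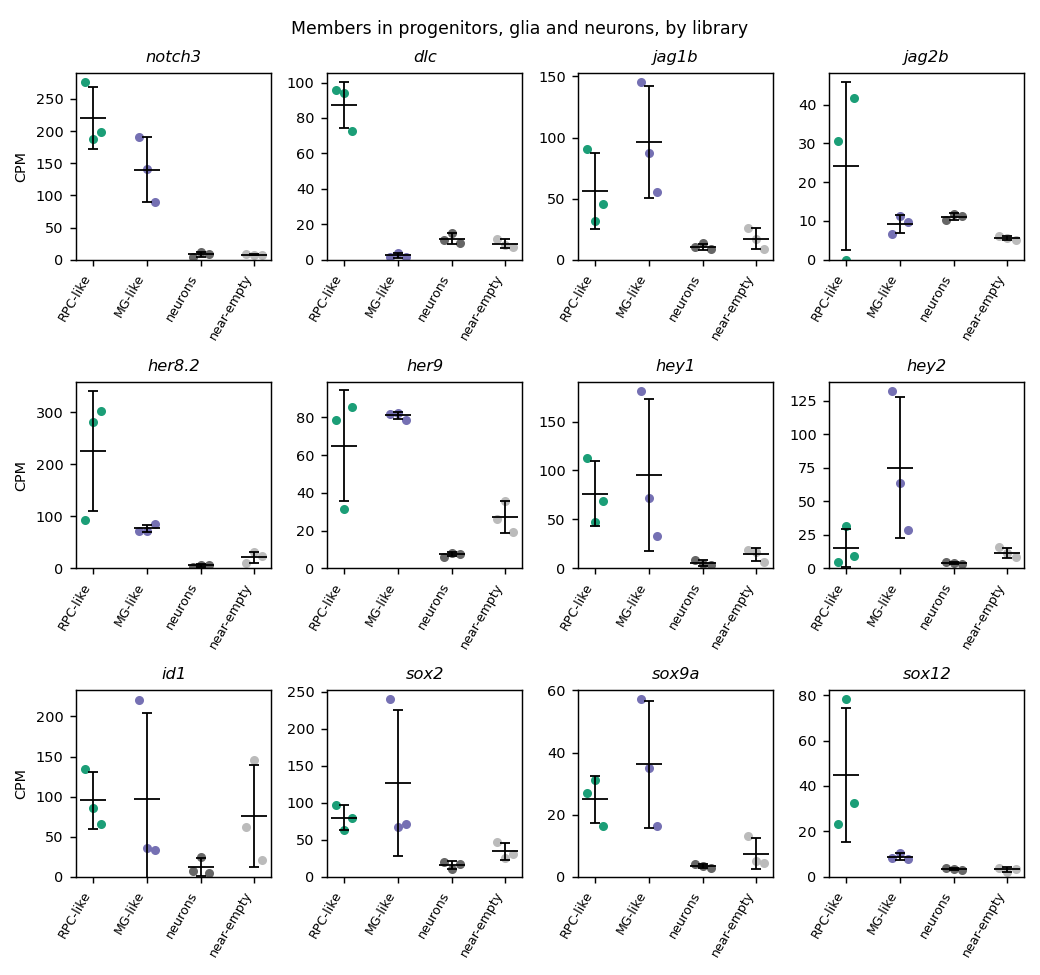
Levels (CPM, linear axes from 0) of 12 members in RPC-like nuclei, MG-like nuclei, neurons and near-empty droplets. Points are the 3 libraries, from library 1 at left to library 3 at right, and bars are mean ± SD. All 3 RPC-like points of dlc lie at 72.6 CPM or above and all MG-like points at 3.95 CPM or below, and id1 in near-empty droplets of library 2 is at 146 CPM.

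Id genes took different courses. For id1, RPC-like nuclei had 135, 86.1 and 65.4 CPM and MG-like nuclei 221, 36.2 and 33.7 CPM, against 7.54, 24.5 and 4.68 CPM in neurons. It was called higher in RPC-like nuclei (7.71-fold, adjusted p = 0.000457) and in MG-like nuclei (6.74-fold, adjusted p = 0.000398). The call for progenitor and glial nuclei together was lost without library 3 (log2 fold change of 2.58) and without the block (2.80). In library 2, near-empty droplets had 146 CPM, more than RPC-like, MG-like or neuronal nuclei, and the part of free RNA in the difference was not tested. In contrast, id4 was not called in either class. Its mean was 36.2 CPM in RPC-like and 27.8 CPM in MG-like nuclei, against 40.3 CPM in neurons.

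The proneural gene neurog1 had 8, 0 and 7 UMIs in RPC-like nuclei and 1 UMI in MG-like nuclei, against 14 UMIs in all neurons, and was too rare for the test. For atoh8, progenitor and glial nuclei had 10.6 ± 5.27 CPM, against 2.31 ± 0.575 CPM in neurons, and near-empty droplets had 8.98 ± 5.18 CPM.

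Of the Sox genes, sox2, which keeps neural progenitors undifferentiated, was high in both classes. It had 97.0, 62.6 and 79.9 CPM in RPC-like nuclei and 241, 67.8 and 71.1 CPM in MG-like nuclei, against 20.6, 10.4 and 17.1 CPM in neurons and 46.9, 25.1 and 30.9 CPM in near-empty droplets. The fold changes over neurons were 4.31 in RPC-like (adjusted p = 0.000104) and 6.94 in MG-like nuclei (adjusted p = 6.16e-07). Its SoxB relative sox3 had 7.66 ± 6.93 CPM in RPC-like and 2.79 ± 0.853 CPM in MG-like nuclei, and did not have enough counts for the test between these classes and neurons.

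The SoxE gene sox9a, known from Müller glia of other vertebrates, had 24.9 ± 7.71 CPM in RPC-like and 36.2 ± 20.6 CPM in MG-like nuclei, against 3.55 ± 0.688 CPM in neurons. It was called higher in both (5.58-fold, adjusted p = 9.48e-05, and 9.02-fold, adjusted p = 1.16e-07). Its relative sox8a had 18.2 ± 6.35 CPM in RPC-like and 6.91 ± 3.16 CPM in MG-like nuclei, against 2.55 ± 0.561 CPM in neurons, and passed the test against neurons in RPC-like nuclei (6.61-fold, adjusted p = 0.000583). For sox10 the mean was 9.28 ± 5.65 CPM in RPC-like and 9.30 ± 5.29 CPM in MG-like nuclei, against 3.18 ± 1.55 CPM in neurons, and MG-like nuclei passed the test against neurons (2.94-fold, adjusted p = 0.0136). Neither gene passed the test between the 2 classes. The SoxC gene sox12, of a group linked to newborn neurons, had 23.3, 78.3 and 32.7 CPM in RPC-like nuclei and 8.19, 10.5 and 7.83 CPM in MG-like nuclei, against 3.82, 3.35 and 2.81 CPM in neurons. It was higher in RPC-like nuclei than in neurons (9.79-fold, adjusted p = 9.63e-06) and than in MG-like nuclei (3.85-fold, adjusted p = 0.00983), and higher in MG-like nuclei than in neurons (2.55-fold, adjusted p = 0.0296). The calls of sox8a, sox9a, sox10 and sox12 were not followed through the alternatives.

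SoxD genes lack an activation domain of their own and act with other factors, and of these sox6 passed the test between RPC-like and MG-like nuclei while sox5 was not called there. For sox6, RPC-like nuclei had 38.1, 86.1 and 30.9 CPM and MG-like nuclei 385, 436 and 301 CPM, against 188, 127 and 106 CPM in neurons. RPC-like nuclei were 9.38-fold below MG-like nuclei (adjusted p = 3.32e-06) and 3.57-fold below neurons (adjusted p = 0.000283), and MG-like nuclei were 2.63-fold above neurons (adjusted p = 0.000618). No library overlapped between RPC-like and MG-like nuclei. At a clustering resolution of 0.3 the call of sox6 between RPC-like nuclei and neurons was lost (log2 fold change of -0.77 in place of -1.83). For sox5, RPC-like nuclei had 29.5, 86.1 and 43.6 CPM, against 97.6, 107 and 97.7 CPM in neurons (2.5-fold lower, adjusted p = 0.00977), a call that was lost without library 1 or 3 (log2 fold changes of -0.98 and -1.23), with DESeq2 (-1.17) and without the block (-1.28). The clock-linked repressor bhlhe40 had 27.0, 94.0 and 50.8 CPM in RPC-like nuclei, against 172, 204 and 90.3 CPM in MG-like nuclei and 80.5, 185 and 81.3 CPM in neurons. It was called lower in RPC-like nuclei than in MG-like nuclei (3.18-fold, adjusted p = 0.00395) and than in neurons (2.33-fold, adjusted p = 0.0135), and the call against neurons was lost without library 1 or 2 (-0.92 and -1.17), at resolution 0.3 (-0.97), with DESeq2 (-1.13), without the block (-1.36) and with the nuclei without a name added (-0.68). The call of bhlhe40 against MG-like nuclei was lost without the block (-1.78).

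**Figure D3:**
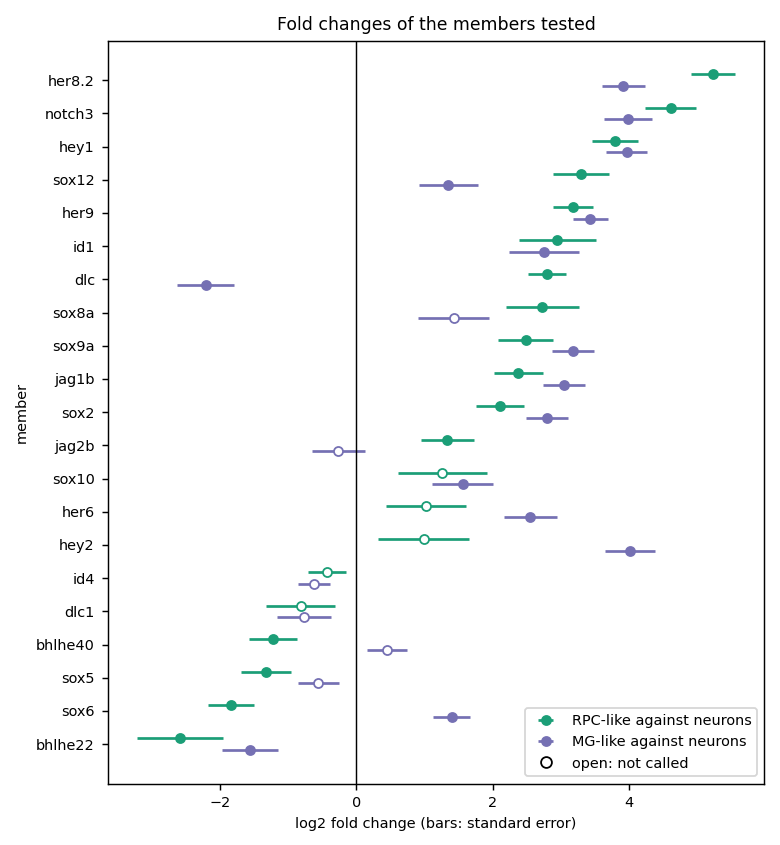
Log2 fold changes with standard errors (horizontal axis) of the members tested, for RPC-like nuclei against neurons and for MG-like nuclei against neurons. The standard errors are approximate, as they were worked back from the F statistic of each test. Filled points passed the test and open points did not, and dlc is seen at 2.79 in RPC-like but -2.21 in MG-like nuclei, while sox6 is at -1.83 and 1.40.

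Within the RPC-like nuclei, 4 sub-clusters of 123, 114, 109 and 29 nuclei differed in the members, which had no part in the division. Summed over libraries, the first, richest in prss56 (724 CPM), had 278 CPM of notch3, 170 CPM of id1 and 66.9 CPM of dlc. The second, richest in the topoisomerase gene top2a (810 CPM) of dividing cells, had 261 CPM of notch3 and 42.5 CPM of dlc. The third, with 1374 CPM of vsx1, had the lowest notch3 at 103 CPM and 131 CPM of dlc. The smallest, with 322 CPM of the bHLH-PAS gene sim1a, had 270 CPM of hey1 (52 UMIs), against 56.1 to 75.8 CPM in the rest, and 192 CPM of dlc (37 UMIs). Library 2 gave 5 of the 114 and 2 of the 29 nuclei, so these levels were not tested.

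Bipolar genes were also read in RPC-like nuclei, where dlc was found as well. Of 7 BC markers, 2 were raised in RPC-like nuclei, and the list summed to 768 to 1401 CPM there, against 3228 to 5305 CPM in BC-like nuclei. Rod markers summed to 3928 to 7133 CPM in RPC-like nuclei and to 6541 to 8119 CPM in MG-like nuclei, against 32469 to 37070 CPM in rod-like nuclei, and no gene of the 9 was raised in either class. The part of these transcripts in the levels above was not tested.

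OL-like nuclei were few and their sums small, so that 3 UMIs correspond to 258, 68.9 and 45.2 CPM. The test called 6 members higher and 0 lower than in neurons, of 22 tested, beside 3.25% and 5.62% of all genes. For sox6, OL-like nuclei had 1292, 872 and 830 CPM, against 188, 127 and 106 CPM in neurons (adjusted p = 4.85e-05). The other 5 were jag1b (0, 7 and 7 UMIs), sox5 (15, 10 and 11), sox8a (0, 6 and 2), sox9a (3, 2 and 3) and sox10 (1, 0 and 6), of which jag1b was lost without library 2 (log2 fold change of 3.11) and sox5 without library 1 or 2 (0.70 and 1.73). The sox5 call was also lost at resolution 0.8 (1.43), in nuclei with at least 1500 UMIs (1.36), without the block (1.50), against neurons without nr2e3-rich nuclei (1.24) and with nuclei without a name added (1.39). Whether the calls of sox8a, sox9a and sox10 held in the alternatives was not followed. Without library 2 or 3 the genes called fell to 367 and 514, against 994 with all 3. OL-like nuclei also had 291 ± 420 CPM of dlc1, against 26.0 ± 5.62 CPM in neurons, which was not called. Markers of pigment epithelium summed to 431, 2227 and 1599 CPM in OL-like nuclei, against 25.4, 56.0 and 60.4 CPM in neurons, with 2 of 7 raised. MG markers summed to 86.2, 1790 and 1176 CPM in OL-like nuclei, against 90.1, 222 and 155 CPM in neurons, with 3 of 6 raised. RPC markers summed to 1637, 207 and 332 CPM, against 314, 291 and 307 CPM in neurons, with 7 of 22 raised. The part of these transcripts in the OL-like levels was not tested.

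Among the neurons, dlc marked bipolar nuclei. It had 79.1, 79.4 and 42.7 CPM in BC-like nuclei, against 3.89, 3.58 and 3.35 CPM in all other neurons (19.8-fold, adjusted p = 4.18e-05). The SoxD gene sox5 had 287, 282 and 190 CPM in BC-like nuclei, against 77.6, 74.7 and 80.2 CPM in other neurons (3.60-fold, adjusted p = 0.000431), and bhlhe23, known from rod bipolar cells in mouse, had 48.9, 17.1 and 18.1 CPM, against 10.0, 4.71 and 7.26 CPM (3.98-fold, adjusted p = 0.00139). Of 24 members tested, these 3 were higher and sox6 and id4 lower, beside 4.46% higher and 3.19% lower among all genes. Without library 2, the members called were 2 in place of 5 and the genes called 426 in place of 1331.

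The dlc level of bipolar nuclei came from 1 of their 4 clusters. In the cluster led by prkd3 (cluster 18, 353 nuclei) dlc had 267, 192 and 134 CPM, against at most 4.18 CPM in any library of the other 3 bipolar clusters. It held 464 of the 477 dlc UMIs of bipolar nuclei. The same cluster had 51.7, 49.0 and 17.9 CPM of jag1b, against at most 12.1 CPM in the others, and 365 ± 108 CPM of sox5, against 70.4 to 262 CPM. Neither notch3, at 9.65 CPM, nor her8.2, at 2.92 CPM, was high in it. By contrast, bhlhe22 was highest in the bipolar cluster led by neto1l (cluster 10), with 36.3 CPM, against 4.75 to 10.2 CPM. These clusters were not tested against each other.

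In amacrine nuclei, sox2, bhlhe22, bhlhe41 and dlc1 were higher than in other neurons and dlc and sox8a lower, of 26 tested, beside 6.28% higher and 4.5% lower among all genes. Amacrine nuclei had 36.9, 18 and 26.1 CPM of sox2, against 11.2, 6.49 and 10.6 CPM in other neurons (2.88-fold, adjusted p = 0.000277). This level lay in the cholinergic (starburst) nuclei. They had 262, 115 and 140 CPM of sox2, against 4.23 to 6.80 CPM in GABAergic, 4.39 to 10.6 CPM in glycinergic and 2.49 to 17.5 CPM in other amacrine nuclei. The cholinergic levels overlapped those of MG-like nuclei, whose libraries had 241, 67.8 and 71.1 CPM, while notch3 in cholinergic nuclei was 9.03 CPM and hey1 0.604 CPM. Cholinergic nuclei were also the highest class by mean for sox3, with 16.8, 6.06 and 8.96 CPM from 31 UMIs. For sox3 they were highest in 2 of the 3 libraries and overlapped RPC-like nuclei, the next class. For id4, cholinergic nuclei had 129, 101 and 102 CPM, against 61.4 to 68.2 CPM in RGC-like nuclei, the next class. Within RGC-like nuclei, ganglion cluster 9 (604 nuclei, 123 UMIs of id4) had 180, 153 and 116 CPM, above the cholinergic level of the same library each time. The ranges overlapped, as its 116 CPM in library 3 lay below the cholinergic 129 CPM of library 1. Ganglion cluster 8 had 53.0 ± 7.57 CPM of id4.

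Bhlhe genes followed other amacrine types. The highest class of bhlhe22 was GABAergic nuclei, with 38.9, 24.1 and 30.3 CPM, against 22.9, 11.9 and 15.4 CPM in BC-like nuclei, the next class, and near-empty droplets had 26.9 CPM on average. For bhlhe41 it was glycinergic nuclei, with 5.73 ± 0.600 CPM, against 3.92 ± 0.185 CPM in GABAergic nuclei. The GTPase-activating gene dlc1 had 47.2 ± 8.55 CPM in GABAergic and 44.5 ± 8.75 CPM in cholinergic nuclei, which did not differ beyond their spread, and 10.2 CPM in rod-like nuclei, its lowest neuron class.

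The SoxD gene sox6 split several neuron classes. RGC-like nuclei had 558, 259 and 310 CPM, against 147, 114 and 80.1 CPM in other neurons (3.42-fold, adjusted p = 6.83e-07). Of the 2 ganglion clusters, cluster 8 (633 nuclei, median 7427 UMIs) had 425 ± 157 CPM and cluster 9 (604 nuclei, median 1140 UMIs) 56.2 ± 32.3 CPM. Glycinergic amacrine nuclei reached 622, 384 and 245 CPM, in all 3 of their clusters (268 to 497 CPM), against 37.7 to 118 CPM in the other amacrine clusters. These groups overlapped between glycinergic and RGC-like nuclei. Of 25 members tested, sox6 and sox12 were higher in RGC-like nuclei and 8 were lower, beside 6.68% higher and 5.28% lower among all genes. The 8 were bhlhe22, bhlhe23, dlc, her9, sox2, sox8a, sox9a and sox10, all with means of at most 7.71 CPM in RGC-like nuclei. In cluster 9 alone, bhlhe22, bhlhe23 and sox2 had 27.5 ± 25.9, 23.1 ± 23.5 and 19.5 ± 18.7 CPM (22, 17 and 18 UMIs). Cluster 8 had 3.01, 1.79 and 6.13 CPM of them. The rest of the 8 had 0 to 4.73 CPM in cluster 9, and the 2 clusters were not tested against each other.

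**Figure D4:**
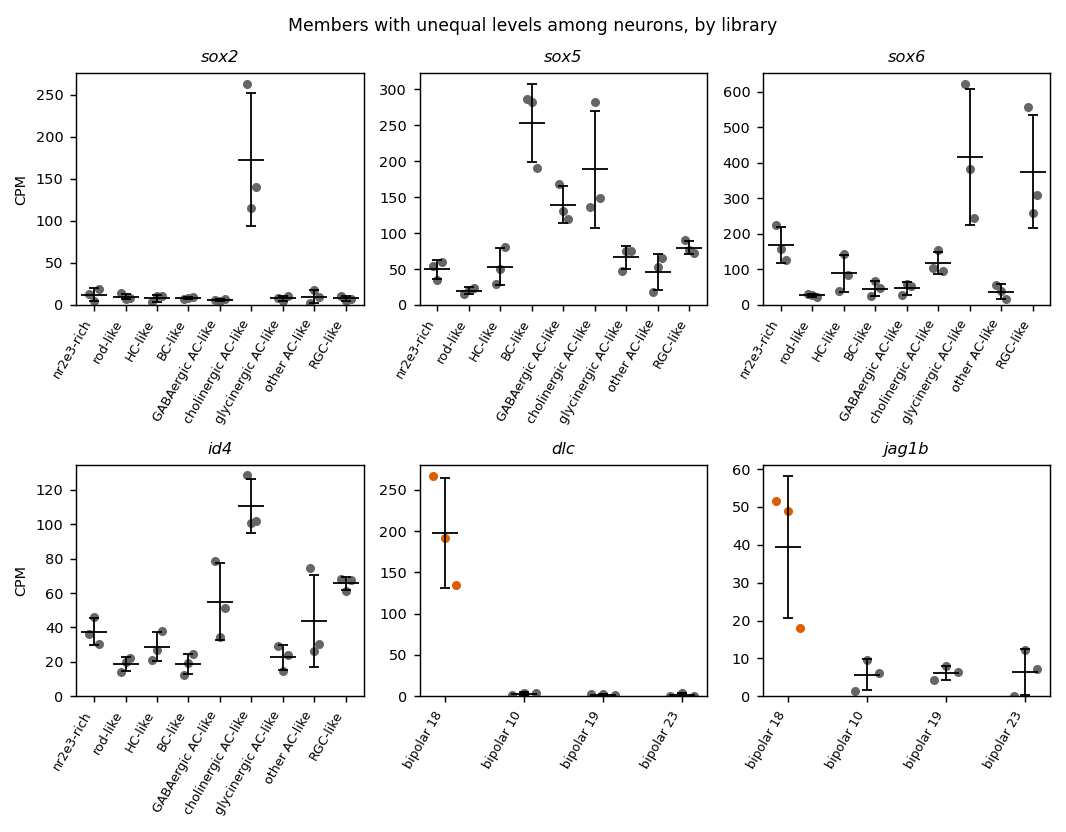
Levels (CPM, linear axes from 0) of sox2, sox5, sox6 and id4 in the 9 neuron classes, and of dlc and jag1b in the 4 bipolar clusters. Points are the 3 libraries, from library 1 at left to library 3 at right, and bars are mean ± SD. The sox2 points of cholinergic nuclei lie at 115 to 262 CPM and the dlc points of bipolar cluster 18 at 134 to 267 CPM.

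In the photoreceptor lineage some Sox genes differed between nr2e3-rich and rod-like nuclei, though not evenly across their clusters. Of 20 members tested, sox5, sox6, sox8a and sox9a were higher in nr2e3-rich than in rod-like nuclei and 0 were lower, beside 8.39% higher and 6.22% lower among all genes. The nr2e3-rich nuclei had 226, 156 and 128 CPM of sox6, against 31.7, 27.7 and 22.8 CPM in rod-like nuclei (5.23-fold, adjusted p = 0.000151). The SoxE gene sox8a had 9.18 ± 1.90 CPM in nr2e3-rich nuclei, against 0.788 ± 0.369 CPM in rod-like nuclei (8.69-fold, adjusted p = 0.0012), and sox9a 9.0 ± 1.37 CPM, against 2.72 ± 1.34 CPM (2.81-fold, adjusted p = 0.0115). Near-empty droplets had 1.44 CPM of sox8a and 7.50 CPM of sox9a on average. In nr2e3-rich cluster 7 (646 nuclei), sox5 had 26.7 CPM and sox9a 5.81 CPM, near the highest rod-like cluster means of 27.4 and 5.96 CPM. There sox6 had 73.5 CPM and sox8a 5.60 CPM, against at most 40.0 and 1.98 CPM in rod-like clusters. These clusters were not tested against each other. Both classes together had sox8a and sox9a higher and 7 members lower than other neurons, of 26 tested, beside 5.17% higher and 14.8% lower among all genes.

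In HC-like nuclei, edgeR's quasi-likelihood test called 0 members of 25 in either direction, beside 3.18% higher and 1.91% lower among all genes. DESeq2 called 0 of 15. At an unadjusted p under 0.05 there were 3 members, but the share of all genes at that limit is not given, so nothing is read from this count. Without a filter on low counts 1 member was called lower, and so was 1 without library 3, also without a share of all genes.

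Beyond the symbols, the study's gene list gave bHLH names to 2 numbered genes, hes6-l (LOC119976266) and olig2-l (LOC119968821). Other numbered genes of the Notch, Hes, Sox and related families could not be searched by product name, so the members may be incomplete. For olig2-l, RPC-like nuclei had 88.4, 47.0 and 69.0 CPM and MG-like nuclei 16.4, 0.659 and 1.20 CPM, against 2.83, 1.83 and 1.86 CPM in neurons. It was 29.5-fold higher in RPC-like nuclei than in neurons (adjusted p = 7.01e-07) and 17-fold higher than in MG-like nuclei (adjusted p = 0.000229). OL-like nuclei had 0, 17 and 7 UMIs of olig2-l. Summed over libraries these were 198 CPM, against 48.7 to 114 CPM in the RPC-like sub-clusters. For hes6-l, whose mammalian relative opposes Hes1, RPC-like nuclei had 113, 78.3 and 85.3 CPM and MG-like nuclei 44.2, 16.5 and 19.3 CPM, against 21.8, 13.4 and 16.6 CPM in neurons (4.70-fold for RPC-like nuclei, adjusted p = 5.00e-06). Near-empty droplets had 80.2, 38.0 and 36.5 CPM of hes6-l.

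A list of 67 other symbols of the Notch machinery matched 26 genes, of which 25 were tested in progenitor and glial nuclei against neurons, with 3 higher, 1 lower and a median log2 fold change of 0.09, beside 7.36% higher and 5.49% lower among all genes. The clearest was lfng, a Fringe enzyme that adds sugars to Notch and shifts its choice of ligand. It had 236, 391 and 332 CPM in RPC-like nuclei and 331, 126 and 166 CPM in MG-like nuclei, against 9.62, 12.2 and 12.7 CPM in neurons. The feedback gene nrarpa had 72.4 CPM in RPC-like and 52.2 CPM in MG-like nuclei, against 13.7 CPM in neurons, and was called in both. The Fringe gene rfng was called higher together with them, in MG-like and OL-like but not in RPC-like nuclei. The lower one was dner, a transmembrane protein of neurons that binds Notch, with 81.6 CPM in progenitor and glial nuclei, against 176 CPM in neurons. The other 21 were not called.

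A list of 58 other bHLH symbols matched 17 genes, and 13 were tested in progenitor and glial nuclei against neurons, with 1 higher and 1 lower, beside the same 7.36% and 5.49% among all genes. The higher one was ptf1a, a factor of amacrine and horizontal cell fate in mouse, with 2.83 CPM (15 UMIs), against 0.152 CPM (10 UMIs) in neurons. Its UMIs were 5, 3 and 5 in RPC-like nuclei and 0, 1 and 1 in MG-like nuclei. The lower one was neurod2 (log2 fold change -1.54). Between RPC-like and MG-like nuclei 3 of 9 were higher and 0 lower, beside 3.95% and 6.06% of all genes. The E protein tcf12, the partner of proneural factors, had 582, 556 and 349 CPM in RPC-like nuclei, against 190, 163 and 197 CPM in MG-like nuclei. The Myc-family gene mycn had 66.3, 39.1 and 58.1 CPM, against 18, 5.93 and 7.83 CPM, and sim1a had 113, 39.1 and 16.3 CPM, against 0, 1.32 and 1.81 CPM. These genes, unlike the members, were open to the clustering.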

How the data were processed

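The authors aligned the reads with STARsolo (STAR 2.7.10a per the labels) to the sScyCan1.1 build and deposited raw counts of UMIs for 29017 features and every barcode, counted over whole genes with introns. Lists of barcodes and features gave names only. Barcodes with at least 200 features were read, and nuclei had to meet the UMI and feature limits that the Methods set for each library, with under 10% mitochondrial UMIs. Doublets were scored as DoubletFinder does at a rate of 4%. Nuclei were normalized with SCTransform (sctransform 0.4.2), integrated by reciprocal principal components in Seurat 5.3.0 on 2000 features without the members, after which 30 components and a resolution of 0.5 gave the clusters. Where a cluster had no name and 1 library made up at least 80% of it, it was taken out before a second round. A cluster took the name of a marker list when at least 3 of its genes had a log2 ratio of 1 or more, with 10 CPM added, and 10 CPM or more, and no other list had more such genes. RPC-like clusters also needed a log2 ratio of 2 for prss56. A cluster in which a second list had enough genes was divided once. Near-empty droplets were the barcodes with at least 200 features whose UMIs did not exceed the median of such barcodes, with a median of 305 to 481 UMIs.

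Sums of the counts by class and library were tested with edgeR 4.0.16 (TMM, filterByExpr, quasi-likelihood) with library as a block, since sums of 1 library come from the same animal. RPC-like, MG-like and OL-like nuclei and neurons shared 1 fit of 12 sums, and the other fits had 2 sums per library. Standard errors (SE) of log2 fold changes did not come from the fit itself. Each was the absolute log2 fold change divided by the square root of the F statistic of its test, and is approximate. The test was tested on simulated data. Members with at least 50 CPM in the higher class and a call, all receptors and ligands, and up to 4 members per neuron class are given in full, and the others in short. Only the members given in full, called named members below, were followed gene by gene through the alternatives. The others were not, and these include members such as sox12 and bhlhe23 whose levels are given by library. Items withheld from the text, 1 member among them, are not reported here by name, though counts include them. Members and lists were chosen with earlier results of these data known. The libraries' depth leaves counting error small for neurons, while RPC-like nuclei of library 2 held 127723 UMIs and OL-like nuclei 11607 to 66300. The alternatives were resolution 0.3 and 0.8, members left in the clustering features, no doublet removal, nuclei with at least 1500 UMIs, DESeq2 1.42.0, no filter on low counts, no block, each library left out, neurons without nr2e3-rich nuclei, neuron classes with equal weight, and, chosen after the data were seen, nuclei without a name added to RPC-like sums. Motifs and protein ends were not analysed here, as no sequences were at hand.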

Additional observations from a re-analysis of the deposited data

Results flagged for a closer look

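Of the nuclei that entered no comparison, several held members at 4 or more times their highest class mean among the named classes other than OL-like nuclei. The cluster of 706 nuclei removed before the second clustering came to 94.9% from library 1 and carried 4 of 4 epithelial markers. In its nuclei of library 1, sox18, a SoxF gene known from vessel lining, had 71.7 CPM (300 of the 322 UMIs of this gene), against at most 0.533 CPM in a class. There, hes2.1 had 43.0 CPM (180 UMIs), against 7.91 CPM in RPC-like nuclei, and sox14 had 8.13 CPM (34 UMIs), against at most 0.221 CPM. The Jagged gene jag2b had 147 CPM (614 UMIs), against 24.1 CPM in RPC-like nuclei. The 29 nuclei of library 2 in this cluster held 1 UMI of sox18, 2 of hes2.1 and 6 of jag2b. Pigment epithelium-like nuclei, 103 in all, had 389 CPM of id1 in library 1 (26 UMIs) and 78.0 CPM of atoh8 in library 3 (15 UMIs), against 97.0 and 13.4 CPM in MG-like nuclei. In nuclei without a name, id1 had 413 CPM in library 2 (92 UMIs), where near-empty droplets had 146 CPM. The cause of these levels was not tested.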

How the results depend on the processing

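The counts of members called stayed within 1.5 times of the value reported in 125 comparisons with an alternative and moved further in 9, and those of all genes stayed in 118 and moved in 16. No log2 fold change of a named member that was called changed its sign. Of these values, 36 lost their call, 10 gained one and 981 did neither. Without the replicate block, the genes called fell to 1377 for progenitor and glial nuclei against neurons, 1078 for MG-like and 657 for OL-like nuclei against neurons, 523 for RPC-like against MG-like nuclei, 1198 for nr2e3-rich against rod-like nuclei, and 405, 614, 1234 and 1345 for horizontal, bipolar, amacrine and ganglion nuclei against other neurons. Members called without the block were 5 between RPC-like and MG-like nuclei, 2 between nr2e3-rich and rod-like nuclei, and 5, 3 and 2 for photoreceptor lineage, bipolar and ganglion nuclei. Members tested were 22, 20, 26, 24 and 25 in that order, as with the block. The share of all genes is not set beside these counts, which describe the members only. Of the named members' log2 fold changes, 8 lost their call without the block and no other call changed with it. Without a filter on low counts, horizontal nuclei had 1418 genes and 1 member called. DESeq2 called 6 members in ganglion nuclei, a count without the share of all genes. With nuclei without a name added to RPC-like sums, 1686 genes were called between RPC-like and MG-like nuclei. Leaving out 1 library gave 367 to 1205 genes for OL-like nuclei, 732 to 926 between RPC-like and MG-like nuclei, 582 to 1194 and 426 to 1429 for horizontal and bipolar nuclei, with 0 to 1 and 2 to 6 members. The cause of these shifts was not tested. Depth limits most the OL-like nuclei and the RPC-like nuclei of library 2, where 3 UMIs are 23.5 CPM.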

Other observations

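Some members stood out in nuclei that belong to no class compared. Pigment epithelium-like nuclei had 119 ± 72.2 CPM of her9 and 155 CPM of id4. The nuclei without a name, which held many RPC genes, had 120 CPM of hes6-l, 10.3 CPM of neurog1, 82.1 CPM of sox2 and 68.1 CPM of notch3, against 92.2, 7.51, 79.8 and 221 CPM in RPC-like nuclei. In the removed cluster with epithelial markers, notch3 had 63.9 CPM in library 1 and 190 CPM (28 UMIs) in library 2, and jag1b had 85.9 and 94.8 CPM. The removed cluster of 121 nuclei with 3 of 3 erythroid markers had 940 CPM of sox6 in the 118 nuclei of library 1 (263 UMIs), and libraries 2 and 3 gave 1 and 2 of its nuclei.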
